A study of Mus musculus with 9 samples.

Results

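The nuclear genes for mitochondrial ribosomal proteins were compared across 3 treatments of 3T3-L1 adipocytes by their messenger RNA levels on Affymetrix expression arrays. A gene was included if its symbol in the array annotation was Mrpl or Mrps followed by digits and was the only symbol of a probe set. This rule gave 76 of 18193 genes, 47 with an Mrpl and 29 with an Mrps symbol, on 156 probe sets. Each gene was read from its brightest probe set, by the mean of the 9 arrays. Of the 76 genes, 34 had 1 probe set and 42 had 2 or more, up to 8. Mrpl30 and Mrpl53 were not analysed here because their probe sets carried the symbol of a neighbouring or overlapping gene as well.

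The mitochondrial ribosome, or mitoribosome, translates the messenger RNAs that mitochondrial DNA encodes, which in mammals all specify subunits of the respiratory chain and of ATP synthase. Its ribosomal RNAs are made inside the organelle, whereas every one of its proteins is encoded in the nucleus, translated in the cytosol and imported. Many of these proteins have bacterial homologues and many others are found only in mitochondrial ribosomes. Mitochondria become more abundant as 3T3-L1 preadipocytes turn into fat cells.

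3T3-L1 is a mouse line of fibroblast-like preadipocytes that is differentiated to adipocytes in culture, and the labels call the cells adipocytes. The control cells were fed linoleic acid (LA), another group was fed conjugated linoleic acid (CLA), and the remaining group received phenformin. LA and CLA are isomeric fatty acids whose double bonds are separated by a methylene group in LA and conjugated in CLA, and phenformin is a biguanide drug that inhibits complex I of the respiratory chain. Each group held 3 arrays that the labels name biological replicates of this 1 cell line. Dose, duration, the isomer of CLA and any fatty acid given along with phenformin are not stated in the labels, so that equal doses or times cannot be assumed and a difference between groups is a difference between these cultures. Levels are on a log2 scale, 1 value for each probe set and array, on which a difference of 1 is a 2-fold change. Values of single arrays are given in the order of replicates 1, 2 and 3, group levels as mean ± SD of n = 3 arrays, and differences as log2 fold changes ± SE with adjusted p from limma.

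All 76 genes were above background on every array, with values from 7.12 to 12.39 against background levels of 3.68 to 4.20. The LA arrays stood apart in several measures. The 99th percentile of all values was 11.62 on LA replicate 3 and lay between 12.18 and 12.45 on the remaining 8 arrays. Beta-actin control probe sets at the 3' end exceeded those at the 5' end by 1.28 ± 0.39 in LA, 0.53 ± 0.10 in CLA and 0.56 ± 0.09 with phenformin, and bacterial and phage hybridization controls averaged 9.93 ± 0.21, 11.94 ± 0.82 and 10.95 ± 0.50. The mean level of 7 adipocyte markers lay between 12.47 and 13.34 in LA, 12.94 and 13.13 in CLA and 13.05 and 13.21 with phenformin. Single markers differed, with log2 fold changes from -1.25 to 0.98 in CLA and from -0.58 to 0.77 with phenformin against LA. At adjusted p under 0.05, 1 rose and 1 fell in CLA and 1 rose with phenformin. The mean level of 7 preadipocyte and fibroblast markers was higher in both treated groups, at 8.50 to 9.02 in LA, 10.44 to 10.66 in CLA and 10.03 to 10.48 with phenformin. Of these 7, 6 rose in CLA and 5 with phenformin. Markers of macrophages, endothelium and skeletal muscle had mean levels of at most 5.32, 4.23 and 5.23 on any array. The part of these differences in the results below was not tested, and in such bulk samples fewer cells of a type and less RNA per cell cannot be told apart.

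Promoters of mitoribosomal protein genes are known for binding sites of GABP, an ETS factor also called NRF2, of NRF1 and of YY1, general activators of nuclear genes for mitochondrial proteins. RefSeq promoter windows of build GRCm38.p6, from 250 bases before to 50 bases after a transcription start, were available for 67 of the 76 genes, in 73 windows of 300 bases. On either strand, the ETS core CCGGAAG was found in 25 of these windows, 34.2%, against 8.86% of 32851 windows of all genes and 13.005% of 18109 windows of genes on the array. The YY1 motif AAGATGGCG was found in 8 windows, 10.96% against 1.40% and 2.09%, and the NRF1 motif GCGCATGCG in 7 windows, 9.59% against 1.75% and 2.69%. The letters TCAAGGTCA, the element of estrogen-related receptors, were in 0 of the 73 windows and in 0.423% of all windows. Matches of different motifs overlapped in 0 of the 73 windows, and a match describes the sequence only. The windows below belong to genes that were called in both comparisons with LA, 3 that rose (Mrpl17, Mrpl32 and Mrpl37) and 2 that fell (Mrpl34 and Mrpl41). They are printed 5′ to 3′ on the strand of the gene with a matched motif in capitals. Mrpl54 rose in both comparisons as well but had no window. Mrpl17 (chr7:105811038-105811337, minus strand) and Mrpl34 (chr8:71464676-71464975, plus strand) held the ETS core, although the former rose and the latter fell, and Mrpl17 held the NRF1 motif as well. Mrpl32 (chr13:14612988-14613287, minus strand) held the NRF1 motif at several places and Mrpl37 (chr4:107066817-107067116, minus strand) the YY1 motif. Mrpl41 (chr2:24975049-24975348, minus strand) held none of the 4 motifs.
Mrpl17: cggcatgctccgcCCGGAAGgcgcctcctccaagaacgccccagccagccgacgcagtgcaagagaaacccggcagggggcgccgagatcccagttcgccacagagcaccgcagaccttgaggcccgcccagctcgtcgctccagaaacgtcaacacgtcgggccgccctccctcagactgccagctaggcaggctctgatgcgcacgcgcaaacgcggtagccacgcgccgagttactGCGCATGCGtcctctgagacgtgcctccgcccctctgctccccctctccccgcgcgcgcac
Mrpl32: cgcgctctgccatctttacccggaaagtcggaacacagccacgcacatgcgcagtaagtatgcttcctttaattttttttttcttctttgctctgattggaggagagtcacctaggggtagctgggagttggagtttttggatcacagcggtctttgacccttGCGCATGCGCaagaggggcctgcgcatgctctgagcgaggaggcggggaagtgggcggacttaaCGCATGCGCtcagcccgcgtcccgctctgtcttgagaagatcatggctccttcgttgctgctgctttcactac
Mrpl37: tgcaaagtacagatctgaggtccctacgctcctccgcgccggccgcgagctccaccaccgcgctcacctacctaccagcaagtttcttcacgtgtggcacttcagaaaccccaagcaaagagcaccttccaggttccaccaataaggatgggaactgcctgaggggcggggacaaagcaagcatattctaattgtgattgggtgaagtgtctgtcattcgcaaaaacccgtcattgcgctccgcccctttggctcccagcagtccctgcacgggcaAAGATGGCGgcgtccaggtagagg
Mrpl34: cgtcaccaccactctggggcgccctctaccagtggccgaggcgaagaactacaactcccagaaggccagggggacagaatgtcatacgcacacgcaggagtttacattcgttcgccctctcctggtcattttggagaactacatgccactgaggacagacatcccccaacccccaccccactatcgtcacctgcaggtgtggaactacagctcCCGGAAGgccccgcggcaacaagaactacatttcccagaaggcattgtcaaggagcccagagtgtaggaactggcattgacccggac
Mrpl41: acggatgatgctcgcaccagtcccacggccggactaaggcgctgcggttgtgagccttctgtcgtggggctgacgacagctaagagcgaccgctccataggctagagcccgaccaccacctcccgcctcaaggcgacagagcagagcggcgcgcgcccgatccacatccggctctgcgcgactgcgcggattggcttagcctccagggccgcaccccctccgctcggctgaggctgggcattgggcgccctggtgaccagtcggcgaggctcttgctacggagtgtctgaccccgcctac

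Members of the family changed in both directions against LA, and most did not pass the test. Between CLA and LA 4 of them rose and 9 fell, 5.26% and 11.8% of the members, while 12.6% of all 18193 genes rose and 7.58% fell (adjusted p under 0.05). Between phenformin and LA 9 rose and 4 fell, 11.8% and 5.26%, against 13.7% and 5.11% of all genes. Between phenformin and CLA 3 rose and 0 fell, against 3.95% and 2.35% of all genes. Without adjustment 13 were higher and 0 lower at p under 0.05 (limma), while 3754 of all 18193 genes were under 0.05 in either direction. The shares that rose were close to or below the background in every comparison. The share that fell was above it in CLA and close to it with phenformin against LA. The median log2 fold change of the members was -0.16 between CLA and LA, 0.03 between phenformin and LA and 0.15 between phenformin and CLA, beside 0.05, 0.01 and -0.03 over all genes. With single arrays left out the median in CLA lay between -0.2513 (without LA replicate 3) and -0.0567 (without LA replicate 2), and that of phenformin against LA between -0.1395 and 0.1399 for the same arrays. These comparisons share arrays, so their values are given side by side and not as independent evidence.

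**Figure D1:**
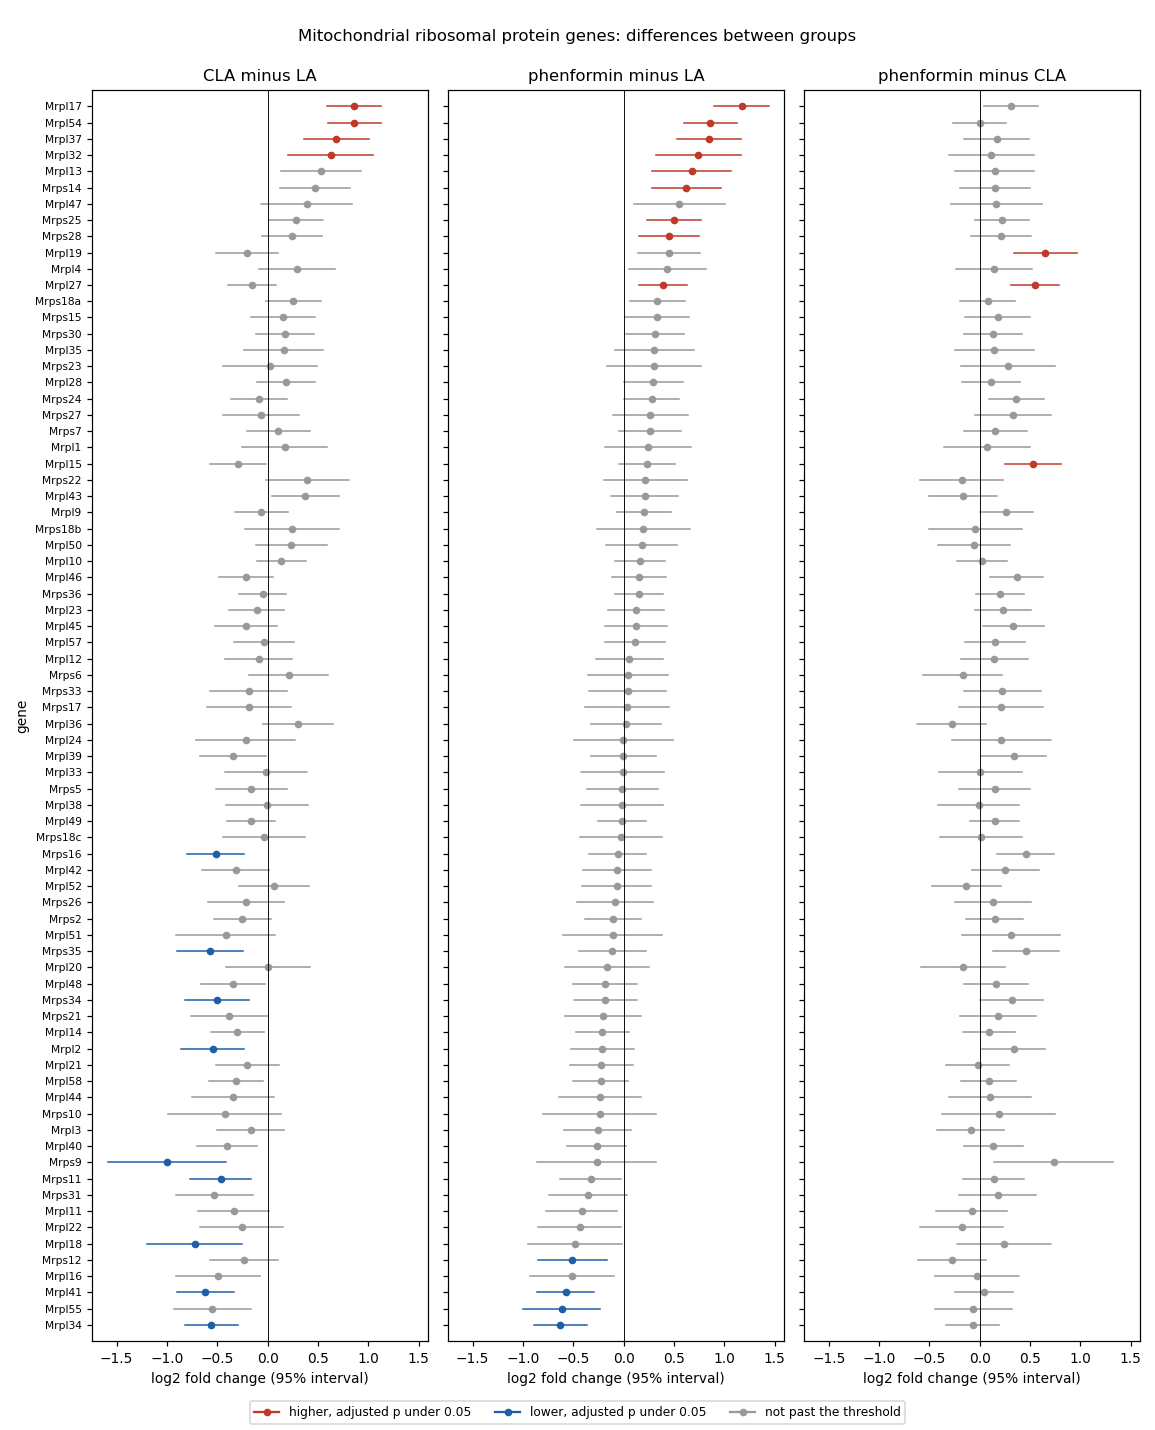
Log2 fold change (point) and 95% interval (line) of each of the 76 genes between CLA and LA, phenformin and LA, and phenformin and CLA, in 1 order of genes throughout, with genes past adjusted p 0.05 in red (higher) or blue (lower). Mrpl17 stands at the top with 0.86 and 1.17 against LA, and most intervals cross 0; under quantile normalization the median of the family against LA is negative in both comparisons, at -0.36 and -0.27.

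The balance of these calls differed between ways of scaling the arrays. LA replicate 3 gave the lowest LA value for 66 of the 76 genes, against 45.6% of all genes, and lay a median of 0.40 below the other LA arrays for these genes. The members were bright genes, with a median LA level of 9.92 against 6.18 over all genes. The median SD within LA was 0.261, against 0.119 in CLA and 0.104 with phenformin, and LA had the largest of the 3 SDs for 62 of 76 genes. Without LA replicate 3, 3 members rose and 23 fell in CLA (11.9% and 9.48% of all genes), and 5 rose and 13 fell with phenformin (12.7% and 6.61%). With the median of each array subtracted the counts moved little, to 3 higher and 10 lower in CLA and 8 higher and 4 lower with phenformin. After quantile normalization of the deposited values, which gives all arrays the same distribution, 3 rose and 34 fell in CLA (10.4% and 12.7% of all genes), and 3 rose and 28 fell with phenformin (9.1% and 10.9%). The median of the members then was -0.36 in CLA and -0.27 with phenformin, the latter with its sign turned. With LA replicate 3 left out of the quantile-normalized values, 30 still fell in CLA and 24 with phenformin. Of 13 members called as deposited, 12 in CLA and 7 with phenformin were still called after this step, and none of them changed sign. The number of falls in CLA and the sign of the median with phenformin thus depended on this choice, whereas the genes named next as stable were called with either scaling. Why LA replicate 3 differed was not tested.

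**Figure D2:**
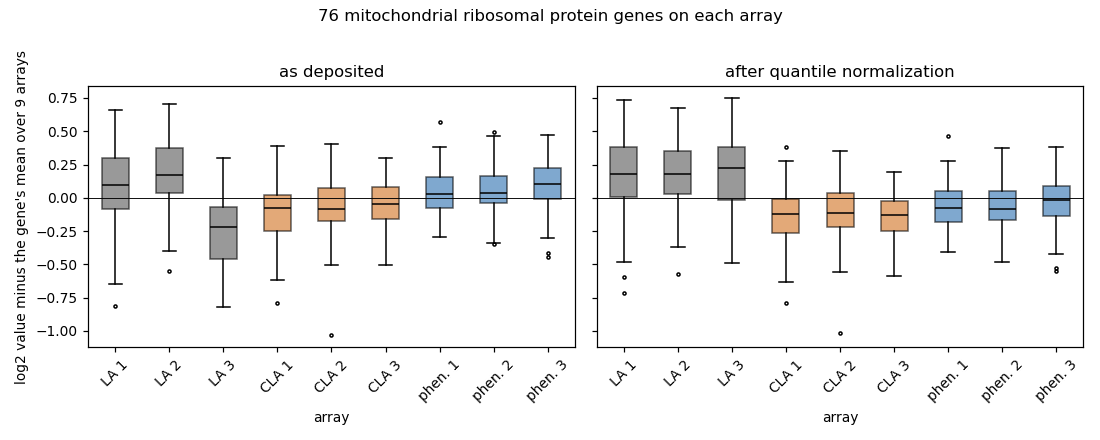
Log2 value of each of the 76 genes minus its mean over the 9 arrays, per array, as deposited (left) and after quantile normalization (right); boxes span the middle 50% with the median as a line, whiskers reach the farthest value within 1.5 box lengths and circles are values beyond. LA replicate 3 lies lowest as deposited and with the other LA arrays, above the CLA arrays, after quantile normalization.

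The comparison of CLA with LA asked how cells given the conjugated isomer differ from cells given its non-conjugated form. Large-subunit genes changed in both directions, 4 up and 4 down among 49, beside 12.6% and 7.58% of all genes. The 4 that rose were Mrpl17, Mrpl54, Mrpl37 and Mrpl32. Mrpl17 encodes the homologue of bacterial protein L17, which sits near the exit of the tunnel through which new protein chains leave. Its values were 10.26, 10.52 and 10.41 in LA and 11.27, 11.40 and 11.09 in CLA. All CLA arrays lay above all LA arrays, and Mrpl17 rose by 0.86 ± 0.12, or 1.81-fold (adjusted p = 0.000872). Mrpl54 encodes a mitochondria-specific protein at the base of the stalk that recruits translation factors. It was at 8.45, 8.70 and 8.42 in LA and at 9.48, 9.33 and 9.33 in CLA, again without overlap, a rise of 0.86 ± 0.12 (adjusted p = 0.000739). Mrpl37, a mitochondria-specific protein with a single probe set, measured 8.54, 8.87 and 8.31 in LA and 9.21, 9.32 and 9.23 in CLA. The CLA arrays were close to each other and above LA, and the gene rose by 0.68 ± 0.15 (adjusted p = 0.00921). Mrpl32 encodes the homologue of bacterial L32, which in yeast and mouse is matured by the m-AAA protease before it joins the ribosome. Its LA values of 10.21, 10.20 and 9.66 and CLA values of 10.71, 10.88 and 10.36 came close to each other, and its rise of 0.63 ± 0.19 was just past the threshold (adjusted p = 0.0483). Without LA replicate 3 the call for Mrpl32 was lost, at 0.44 and adjusted p = 0.123, and after quantile normalization it was 0.38 and 0.145.

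The large-subunit genes that fell in CLA were Mrpl18, Mrpl41, Mrpl34 and Mrpl2. Mrpl41 encodes a mitochondria-specific protein and Mrpl34 the homologue of the small bacterial protein L34. Mrpl41 was at 10.11, 9.96 and 9.73 in LA and at 9.30, 9.41 and 9.23 in CLA, and Mrpl34 at 9.98, 10.28 and 9.98 in LA and at 9.52, 9.55 and 9.50 in CLA. Neither gene had a CLA array within the LA range. Mrpl41 had a log2 fold change of -0.62 ± 0.13 (adjusted p = 0.00778) and Mrpl34 of -0.56 ± 0.12 (adjusted p = 0.00919). Both kept the call without any single array and after quantile normalization, at -0.83 and -0.78. Both lost it when the RNA quality measure of pyruvate carboxylase (its 3' probe set minus its 5' one) was added to the fit, at adjusted p = 0.227 and 0.108. This measure was 5.35 ± 0.43 in LA, 4.02 ± 0.63 in CLA and 3.95 ± 0.60 with phenformin, and every LA array lay above every treated array. Because the measure went with treatment, a call lost in this fit cannot tell RNA quality from treatment in either comparison with LA. Mrpl2, the homologue of L2 close to the peptidyl transferase centre, measured 10.67, 10.82 and 10.34 in LA and 9.93, 10.11 and 10.15 in CLA, a change of -0.55 ± 0.14 (adjusted p = 0.0228). Mrpl18, the homologue of the 5S RNA-binding protein L18 in the central protuberance, was at 10.92, 10.97 and 10.12 in LA and at 10.01, 9.77 and 10.05 in CLA. LA replicate 3 lay next to the CLA arrays, and the gene changed by -0.73 ± 0.21 (adjusted p = 0.0405).

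Among the 26 small-subunit genes 5 fell in CLA and 0 rose, beside 7.58% and 12.6% of all genes. Of the 26, 17 had a log2 fold change below 0, with a median of -0.17 against -0.16 for the large subunit. Over all 18193 genes 7827 were below 0, with a median of 0.05. Mrps9, the homologue of S9, whose tail reaches the transfer RNA in the peptidyl site in bacteria, had the largest fall of the family. It measured 9.31, 9.07 and 8.84 in LA and 7.86, 7.62 and 8.74 in CLA. CLA replicate 3 stood apart from the other CLA arrays and just below the lowest LA value. Mrps9 changed by -1.003 ± 0.27, 2.004-fold lower (adjusted p = 0.0265), and lost the call without LA replicate 1, LA replicate 2, CLA replicate 1 or CLA replicate 2, with adjusted p over all alternatives from 0.00144 to 0.11. Of its 4 probe sets 3 were called lower in CLA, the other 2 with -0.50 and -1.10 (adjusted p = 0.0378 and 0.0014).

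Mrps35 and Mrps34 are mitochondria-specific proteins, and Mrps16 and Mrps11 are homologues of bacterial S16 and S11. Mrps35 was at 10.20, 10.31 and 10.10 in LA and at 9.36, 9.64 and 9.88 in CLA, a change of -0.58 ± 0.15 (adjusted p = 0.0238). Mrps16 was at 10.91, 11.16 and 10.77 in LA and at 10.28, 10.46 and 10.55 in CLA, a change of -0.52 ± 0.13 (adjusted p = 0.02). The groups were separate for both genes by a gap smaller than their fold change. Mrps34 changed by -0.50 ± 0.14, from 11.12 ± 0.24 to 10.62 ± 0.14 (adjusted p = 0.0348), and Mrps11 by -0.47 ± 0.14, from 8.80 ± 0.23 to 8.33 ± 0.10 (adjusted p = 0.0408). The 9 lower calls of this comparison came down to 2 without LA replicate 1, LA replicate 2, CLA replicate 1 or CLA replicate 2. Members with large differences that missed the threshold were Mrpl55 at -0.55 ± 0.17, Mrpl13 at 0.53 ± 0.18, Mrps31 at -0.53 ± 0.17 and Mrpl16 at -0.49 ± 0.19 (adjusted p = 0.0537 to 0.111).

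The comparison of phenformin with LA asked how cells treated with a drug that acts on respiration differ from the fatty acid control. The leading genes were large-subunit genes, of which 6 rose and 3 fell among 49. In the small subunit 3 rose and 1 fell among 26. Over all genes 13.7% rose and 5.11% fell. Mrpl17 was at 11.64, 11.57 and 11.49 with phenformin, all above the highest LA value of 10.52. It rose by 1.17 ± 0.12, or 2.25-fold, the largest difference of the family in any comparison with these settings (adjusted p = 0.000167). Mrpl54 was at 9.40, 9.27 and 9.47 and rose by 0.86 ± 0.12 (adjusted p = 0.000835), and Mrpl37 was at 9.36, 9.35 and 9.56 and rose by 0.85 ± 0.15 (adjusted p = 0.00284). Both genes had every phenformin array above every LA array. Mrpl32 was at 10.86, 10.91 and 10.52 and rose by 0.74 ± 0.19 (adjusted p = 0.0234). Leaving out LA replicate 3 took this call away (0.56, adjusted p = 0.0574), as did leaving out phenformin replicate 1 or 2. Mrpl17, Mrpl54 and Mrpl37 were called in both comparisons with LA whichever array was left out and with every scaling. After quantile normalization the 3 genes had 0.58, 0.71 and 0.54 in CLA and 0.85, 0.63 and 0.63 with phenformin. With the pyruvate carboxylase measure in the fit Mrpl37 missed the threshold, at adjusted p = 0.122 and 0.0807, while Mrpl17 and Mrpl54 passed it. As the measure went with treatment, the lost call of Mrpl37 does not tell RNA quality from treatment.

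**Figure D3:**
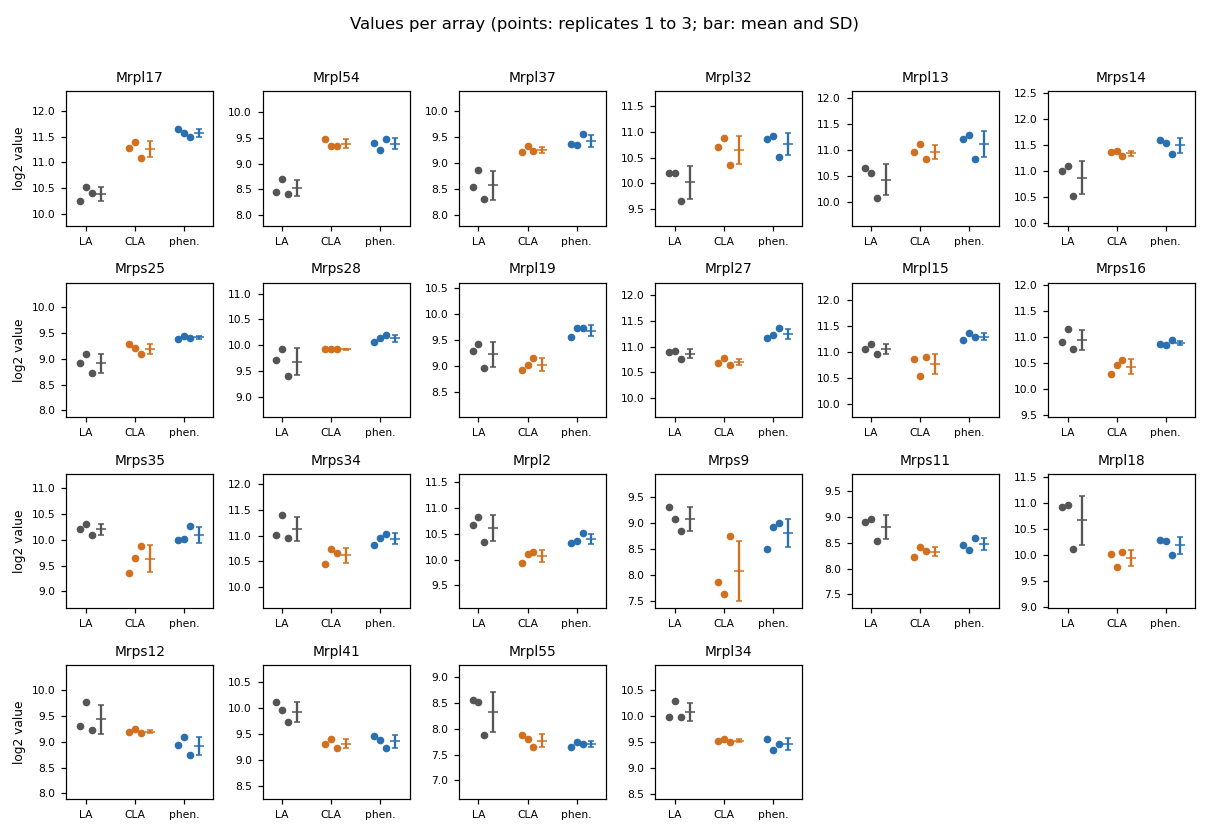
Log2 value of each of the 22 genes called in any comparison, per array, with LA in grey, CLA in orange and phenformin in blue; points are replicates 1 to 3 and the bar beside them is the mean and SD, on axes of equal length that start at different levels. The treated arrays of Mrpl17, Mrpl54 and Mrpl37 lie above LA and those of Mrpl41 and Mrpl34 below it, under quantile normalization too.

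The remaining large-subunit genes that rose with phenformin were Mrpl13 and Mrpl27, homologues of bacterial L13 and of L27, a protein near the peptidyl transferase centre. Mrpl13 measured 10.66, 10.55 and 10.08 in LA and 11.21, 11.30 and 10.82 with phenformin, a rise of 0.68 ± 0.18 (adjusted p = 0.0253). Mrpl27 measured 10.90, 10.92 and 10.76 in LA and 11.17, 11.22 and 11.36 with phenformin, a rise of 0.39 ± 0.11 (adjusted p = 0.0312). In both genes the groups were separate, and LA replicate 3 was the lowest array of all 9 for Mrpl13. After quantile normalization neither was called, and Mrpl27 stood at 0.05. The small-subunit genes Mrps14, Mrps25 and Mrps28, of which Mrps14 is the homologue of bacterial S14 and Mrps25 is mitochondria-specific, rose by 0.62 ± 0.16, 0.50 ± 0.12 and 0.45 ± 0.13 (adjusted p = 0.0172 to 0.0434). Mrps14 measured 11.01, 11.09 and 10.52 in LA and 11.60, 11.55 and 11.33 with phenformin. Mrps25 measured 8.92, 9.10 and 8.72 in LA and 9.39, 9.44 and 9.41 with phenformin, and Mrps28 9.71, 9.93 and 9.41 in LA and 10.06, 10.14 and 10.20 with phenformin. The phenformin arrays of these 3 genes were tightly grouped above a wider LA group, and none of the 3 was called after quantile normalization.

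The genes that fell with phenformin were Mrpl34, Mrpl55, Mrpl41 and Mrps12. Mrpl34 was at 9.56, 9.34 and 9.46, below all LA arrays, with a log2 fold change of -0.63 ± 0.12 (adjusted p = 0.00506). Mrpl41 was at 9.46, 9.38 and 9.23, also below LA, with -0.58 ± 0.13 (adjusted p = 0.0116). As in CLA, both genes kept the call without any single array and after quantile normalization (-0.92 and -0.86) and lost it with the quality measure (adjusted p = 0.1 and 0.372). Mrpl55, a homologue of bacterial L31 by its place in the ribosome, was at 8.56, 8.52 and 7.88 in LA and at 7.65, 7.75 and 7.71 with phenformin. LA replicate 3 lay near the phenformin arrays, and the change of -0.62 ± 0.17 (adjusted p = 0.0339) kept its call without that array but lost it without LA replicate 1 or 2, CLA replicate 1 or 2, or any phenformin replicate, and with the quality measure in the fit. Mrps12 encodes the homologue of S12, which takes part in decoding. It was at 9.30, 9.76 and 9.23 in LA and at 8.93, 9.10 and 8.74 with phenformin, a change of -0.51 ± 0.15 (adjusted p = 0.0466) that missed the threshold without any of 8 of the 9 arrays, the exception being LA replicate 3.

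The 9 higher and 4 lower calls of phenformin against LA were sensitive to single arrays. The higher calls numbered 3 without phenformin replicate 1 or 2 and 5 without LA replicate 3. The lower calls numbered 2 without LA replicate 1 or 2, CLA replicate 1 or 2, or any phenformin replicate, and 13 without LA replicate 3. The CLA arrays enter this comparison only through the shared estimate of the spread. Members with large differences that missed the threshold were Mrpl47 at 0.55 ± 0.20, Mrpl16 at -0.52 ± 0.19, Mrpl18 at -0.48 ± 0.21 and Mrpl19 at 0.45 ± 0.14 (adjusted p = 0.0519 to 0.162).

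Phenformin and CLA were compared without the LA arrays entering other than through the spread, and here the fewest members were called. Of the 76 genes 58 had a log2 fold change above 0, and 53 after quantile normalization, with medians of 0.15 and 0.083. Over all 18193 genes 8072 and 8247 were above 0, with medians of -0.03 and -0.02. After quantile normalization 1 rose and 0 fell (3.46% and 3.52% of all genes), and without LA replicate 3, 4 rose and 0 fell (5.96% and 3.48%). Mrpl19, Mrpl27 and Mrpl15 rose, all of the large subunit and all homologues of bacterial proteins, L19 at the face between the subunits, L27 and L15. Mrpl19 was at 8.91, 9.01 and 9.15 in CLA and at 9.56, 9.74 and 9.73 with phenformin, and rose by 0.65 ± 0.14 (adjusted p = 0.0264). Mrpl27 was at 10.69, 10.77 and 10.65 in CLA and rose by 0.55 ± 0.11 (adjusted p = 0.018). Mrpl15 was at 10.87, 10.53 and 10.89 in CLA and at 11.22, 11.36 and 11.29 with phenformin, and rose by 0.53 ± 0.13 (adjusted p = 0.0416). No phenformin array of these genes lay within the CLA range, and in Mrpl19 and Mrpl15 the LA values, 9.29, 9.42 and 8.96 and 11.06, 11.15 and 10.96, did not stand apart, since the lowest LA value of Mrpl19 was within the CLA range and the LA values of Mrpl15 were between the 2 groups. The 3 calls were few enough for single arrays to decide them: 0 remained without CLA replicate 1, phenformin replicate 2 or phenformin replicate 3, 1 without CLA replicate 2 or phenformin replicate 1, and 5 were made without CLA replicate 3. Mrps9, Mrps35, Mrps16 and Mrpl46 had the largest differences that missed the threshold, at 0.73 ± 0.27, 0.46 ± 0.15, 0.46 ± 0.13 and 0.37 ± 0.12 (adjusted p = 0.0815 to 0.18).

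Of 7 genes named for a special role or place, Mrps12 was called with phenformin, as given above. The other 6 did not pass the threshold in the values as deposited. Mrpl12, which forms the stalk and in human cells also binds the mitochondrial RNA polymerase, was at 11.45 ± 0.30 in LA, 11.36 ± 0.08 in CLA and 11.51 ± 0.08 with phenformin. Its 95% interval was -0.42 to 0.24 in CLA and -0.27 to 0.39 with phenformin. Mrpl10 and Mrpl11, which hold the stalk, had log2 fold changes of 0.14 and -0.34 in CLA and 0.16 and -0.42 with phenformin. Mrps30 and Mrps18a, which despite their names belong to the large subunit, had 0.18 and 0.25 in CLA and 0.31 and 0.33 with phenformin. Mrps36, now assigned to the 2-oxoglutarate dehydrogenase complex and not to the ribosome, had -0.05 and 0.15. Further members outside the calls were Mrps6, Mrpl51 and Mrpl39, at 0.21, -0.42 and -0.34 in CLA and 0.04, -0.11 and -0.0043 with phenformin, and Mrps27 and Mrpl36, at -0.06 and 0.30 in CLA and 0.26 and 0.02 with phenformin. Mrps6 was called lower with phenformin after quantile normalization, at -0.33 (adjusted p = 0.0418). Of 5 stalk genes, listed below, 2 were called lower in CLA and 1 with phenformin after that step.

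By place in the ribosome, few genes of any neighbourhood were called in the values as deposited. Of 5 genes of the stalks and their bases (Mrpl1, Mrpl10, Mrpl11, Mrpl12 and Mrpl54) only Mrpl54 was called in either comparison with LA. Of 7 at the exit tunnel only Mrpl17 was. Of 10 in the central protuberance Mrpl18 was called in CLA, Mrpl27 and Mrpl55 with phenformin against LA, and Mrpl27 with phenformin against CLA. Of these 10 genes 9 had a log2 fold change below 0 in CLA, with a median of -0.27. With phenformin against LA 7 did, with a median of -0.10. Over all 18193 genes 7827 and 8811 were below 0. After quantile normalization 7 of the 10 were called lower in CLA and 5 with phenformin. So were 2 and 1 of the 5 stalk genes and 2 and 2 of the 7 exit tunnel genes. Of all 76 members 34 and 28 were, and of all genes 12.7% and 10.9%. Without LA replicate 3, 3 and 2 of the 10 were called lower. Of the 76 members 23 and 13 then were, and of all genes 9.48% and 6.61%. Of 45 genes with a bacterial homologue 2 rose and 6 fell in CLA and 6 rose and 3 fell with phenformin. Of 28 mitochondria-specific genes 2 rose and 3 fell in CLA and 3 rose and 1 fell with phenformin. Over all genes 12.6% rose and 7.58% fell in CLA, and 13.7% rose and 5.11% fell with phenformin. After quantile normalization 3 of 49 large-subunit genes rose and 23 fell in CLA, and 3 rose and 18 fell with phenformin. Of 26 small-subunit genes 0 rose and 11 fell in CLA, and 0 rose and 10 fell with phenformin. Over all genes 10.4% rose and 12.7% fell in CLA after this step, and 9.1% and 10.9% with phenformin.

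Other probe sets of the same gene often differed from the brightest. In CLA against LA 6 of the 13 called members had several probe sets, and for 1, Mrps9, another was called the same way. With phenformin against LA 8 of 13 had several and for 0 another was called the same way. Mrpl15, called with phenformin against CLA, had 8 probe sets, another of which was called too, at 1.29 (adjusted p = 0.0043). That probe set, at a mean level of 8.08, was also higher with phenformin against LA, by 0.73 (adjusted p = 0.0235). The brightest of Mrpl15, at 11.04, was not called against LA. Its probe sets at 10.95 and 10.64 were called lower in CLA against LA, at -0.65 and -1.04 (adjusted p = 0.0114 and 0.0166). The further probe sets of Mrpl17 had -0.22 and 0.17 in CLA and -0.40 and 0.11 with phenformin, at mean levels of 5.55 and 4.84, against 11.07 for the brightest. The other probe set of Mrpl54 had 0.39 and 0.04 at a mean level of 4.75, and the other of Mrpl34 had 0.13 and 0.23 at 5.68. In Mrpl41 a probe set about as bright (9.48) had -0.47 in CLA and -0.39 with phenformin, on the same side and not called (adjusted p = 0.0725 and 0.136). Mrps14 was the gene whose probe sets were called in opposite directions with phenformin, 0.62 for the brightest and -0.39 for a probe set at a mean level of 3.51, below the background levels, so that the latter is no usable measurement of the gene. Some members not called by their brightest probe set had another that was called, in either direction. Mrpl49 at 8.88 had -0.75 in CLA and -0.55 with phenformin (adjusted p = 0.00158 and 0.00947). In CLA Mrpl44 had -1.004 at 8.63 and Mrpl28 -0.63 at 9.49 (adjusted p = 0.0104 and 0.0155). Mrps5 at 7.94 had 0.57 in CLA and 0.75 with phenformin, and Mrpl1 at 6.39 had -0.59 and -0.94 (adjusted p = 0.00262 to 0.0308). Which probe set follows the main transcript of a gene was not tested.

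Proteins that act with the mitoribosome were read from lists of known genes. Beside the counts in these lists, 12.6% of all genes rose and 7.58% fell in CLA. With phenformin against LA 13.7% of all genes rose and 5.11% fell. Of 4 mitoribosome proteins with other symbols 0 were called in CLA, and 3 rose with phenformin: the guanine nucleotide-binding Dap3 by 0.50 ± 0.13, Gadd45gip1 by 0.55 ± 0.16 and Chchd1 by 0.38 ± 0.11 (adjusted p = 0.0214 to 0.046). Of these 3, 1 was called without LA replicate 3 and 0 were called higher after quantile normalization. The remaining gene of this list, Ptcd3, had -0.42 in CLA and -0.49 with phenformin and was not called. After quantile normalization Ptcd3 was called lower in both comparisons. Without LA replicate 3 it was called lower with phenformin only. Among 11 mitochondrial translation factors the elongation factor Guf1 fell in CLA, at -0.95 ± 0.27 (adjusted p = 0.0342), and the release factor Mtrf1l rose with phenformin, by 0.53 ± 0.16 (adjusted p = 0.0485). The Mtrf1l call was lost with median centring, with quantile normalization and without LA replicate 3 (adjusted p = 0.0752, 0.183 and 0.0797). Among 19 genes for assembly and modification of the mitoribosome 1 rose and 3 fell in CLA and 2 rose and 2 fell with phenformin. The RNA helicase Ddx28 measured 7.95, 8.05 and 8.15 in LA, 8.69, 8.81 and 8.76 in CLA and 8.11, 8.08 and 8.11 with phenformin. It was high in CLA alone, with 0.70 ± 0.10 against LA and -0.65 ± 0.10 for phenformin against CLA (adjusted p = 0.00109 and 0.00631).

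Mrm2, a methyltransferase of the large ribosomal RNA, fell in both comparisons with LA, with -0.91 ± 0.19 and -1.01 ± 0.19, as did Mterf4, a partner of an RNA methyltransferase, with -0.52 ± 0.12 and -0.47 ± 0.12. The assembly GTPase Mtg1 fell in CLA, at -0.60 ± 0.12. Mterf3, which represses mitochondrial transcription in mice, rose with phenformin by 0.87 ± 0.23 and Malsu1, a factor of large-subunit assembly, by 0.61 ± 0.15, of which Malsu1 lost the call after quantile normalization (0.27, adjusted p = 0.0794). Among 11 genes of mitochondrial DNA expression the RNA polymerase Polrmt measured 8.92, 9.15 and 8.76 in LA, 7.74, 7.61 and 8.39 in CLA and 7.73, 8.08 and 8.25 with phenformin. All treated arrays lay below LA, and Polrmt fell in both comparisons, at -1.03 ± 0.21 and -0.92 ± 0.21 (adjusted p = 0.00772 and 0.0139). Polg2, the accessory subunit of the DNA polymerase, rose with phenformin by 0.47 ± 0.12 against LA and by 0.86 ± 0.12 against CLA (adjusted p = 0.0256 and 0.00366). After quantile normalization Polg2 kept the second call and lost that against LA (0.25, adjusted p = 0.2). Transcripts encoded by mitochondrial DNA itself were not analysed here.

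Nuclear genes for complex I, many of whose core subunits the mitoribosome makes, and for the cytosolic ribosome gave a measure of how these families moved on the same arrays. Of 34 complex I genes 2 rose and 1 fell in CLA, and 8 rose and 0 fell with phenformin against LA. Those shares were 5.88% and 2.94% in CLA, beside 12.6% and 7.58% of all genes. With phenformin they were 23.5% and 0%, beside 13.7% and 5.11% of all genes. With phenformin against CLA all 34 had a log2 fold change above 0, beside 8072 of all 18193 genes. Of the 34, 0 were called and 4 were at p under 0.05 without adjustment (limma), beside 3754 of all genes. Their median was 0.22, against -0.03 over all genes. Ndufa4, whose protein is now assigned to cytochrome c oxidase and not to complex I, and Ndufa7 rose by 0.80 ± 0.14 and 0.54 ± 0.11 with phenformin against LA, and Ndufa7 lost the call after quantile normalization (0.18, adjusted p = 0.44). After quantile normalization complex I had 0 higher and 13 lower calls in CLA and 2 and 3 with phenformin. Over all genes the shares then were 10.4% higher and 12.7% lower in CLA, and 9.1% and 10.9% with phenformin. Of 45 cytosolic ribosomal protein genes 5 rose and 0 fell in CLA and 6 rose and 0 fell with phenformin. The shares that rose, 11.1% and 13.3%, were close to those over all genes, and the shares that fell were below them. The medians of these genes were 0.34 and 0.32 and became 0.05 and 0.01 after quantile normalization. The median of the mitoribosomal genes was thus below that of the cytosolic ones in both comparisons with LA with either scaling, a difference that was not tested.

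**Figure D4:**
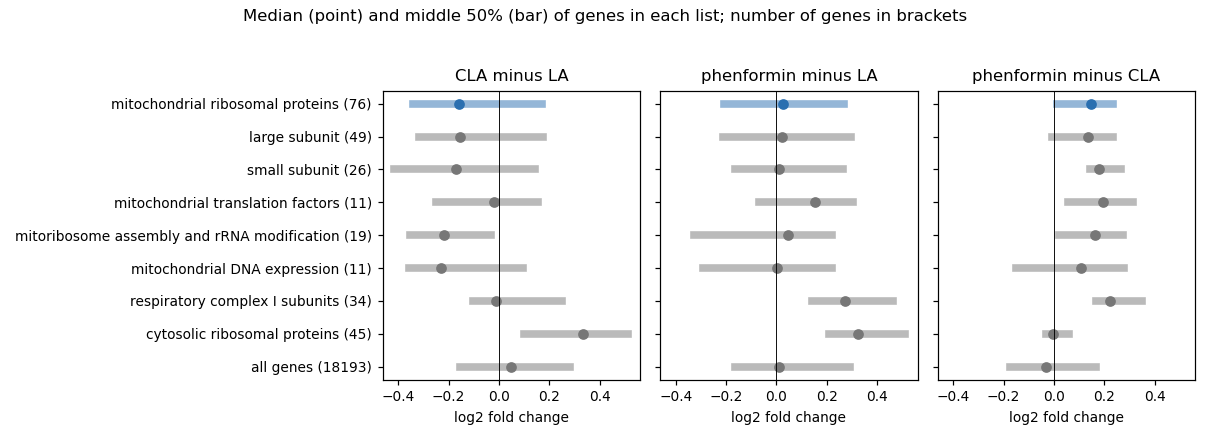
Median log2 fold change (point) and middle 50% of genes (bar) for the mitoribosomal genes, their subunits, 5 related gene lists and all genes, in the 3 comparisons, as deposited. The mitoribosomal genes have medians of -0.16, 0.03 and 0.15 and the cytosolic ribosomal proteins 0.34, 0.32 and -0.0044; quantile normalization turns the phenformin median of the mitoribosomal genes to -0.27.

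Many mitoribosomal genes share a promoter region with a gene that is transcribed the other way. For 25 members the gene table placed a start that faces away within 1000 bases, which gave 24 pairs because Mrpl46 and Mrps11 are each other's partner. Pnpla7, a lysophospholipase gene and the partner of Mrpl41, measured 7.08, 7.07 and 7.16 in LA, 5.73, 5.67 and 6.36 in CLA and 6.49, 6.55 and 6.54 with phenformin. The starts of this pair lay 935 bases apart, the largest distance among the pairs. Both genes of this pair fell in both comparisons, Pnpla7 with -1.18 ± 0.17 in CLA and -0.58 ± 0.17 with phenformin (adjusted p = 0.000871 and 0.0405). The phenformin call of Pnpla7 was lost with median centring and without LA replicate 3 (adjusted p = 0.0636 and 0.0857). Sars2, the mitochondrial seryl-tRNA synthetase and the partner of Mrps12, fell too, with -1.003 ± 0.17 in CLA and -0.90 ± 0.17 with phenformin (adjusted p = 0.00259 and 0.00511), where Mrps12 was called with phenformin only. Both genes had log2 fold changes of the same sign in 15 of 24 pairs in CLA and in 15 with phenformin against LA. Over all 24 pairs both genes were called the same way in 1 pair in CLA and in 2 with phenformin, and 0 pairs were called in opposite directions. In 4 pairs only the member was called in either comparison, and in 4 and 3 pairs only the partner. The complex I gene Ndufb5, the partner of Mrpl47, rose with phenformin by 0.61 ± 0.13 beside 0.55 ± 0.20 for Mrpl47, which was not called, and Ndufb5 lost its call after quantile normalization (0.25, adjusted p = 0.117). The proteasome gene Psma2, the partner of Mrpl32, had 0.66 ± 0.23 in CLA and 0.24 ± 0.23 with phenformin and was not called. Other partners moved against their member. Ppp1r10, the partner of Mrps18b, fell with phenformin, at -1.11 ± 0.14 (adjusted p = 0.000593), beside 0.20 ± 0.21 for Mrps18b. Hira, the partner of Mrpl40, rose with phenformin by 0.55 ± 0.16 (adjusted p = 0.0372), beside -0.27 ± 0.13 for Mrpl40. Neither member was called.

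**Figure D5:**
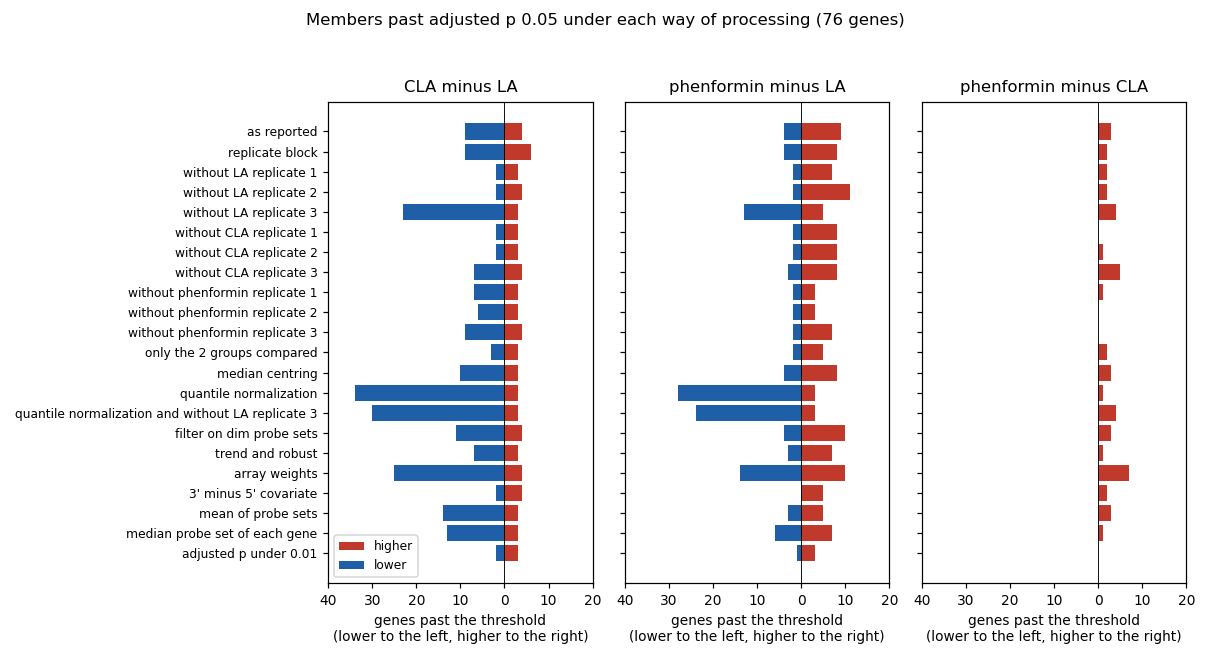
Number of the 76 genes past adjusted p 0.05 under each way of processing (past 0.01 in the lowest bar), lower to the left and higher to the right, in the 3 comparisons. As reported the counts are 9 lower and 4 higher, 4 lower and 9 higher, and 0 lower and 3 higher; quantile normalization, array weights and leaving out LA replicate 3 give the most lower calls against LA.

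With 3 arrays per group the 95% interval reached a median of 0.333 to either side of the log2 fold change for these genes, with a range of 0.236 to 0.588. The interval lay within a 2-fold difference in either direction for 70 of 76 genes in CLA, for 70 with phenformin against LA and for 75 with phenformin against CLA. Smaller differences of most members could not be told from 0 with these arrays, and a member that missed the threshold is not shown to be the same. With 3 arrays on each side, permuting the labels could not reach a two-sided p under 0.1 for any gene, and limma was used because it borrows the spread from all probe sets. If the replicates were not separate cultures, these p-values measure only technical spread. In the authors' deposited table of each comparison, the call of all 76 members was the same as here.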

How the data were processed

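There were 9 arrays, 3 per group, which the labels call biological replicates. The deposited log2 values per probe set were made by the authors with RMA, and the submitters' processing notes also name R 2.9.0 and limma, the latter without a version. RMA usually includes quantile normalization across arrays, but the deposited arrays do not share 1 distribution (LA replicate 3 has the lowest 99th percentile), so which arrays were normalized together is not known here and touches every comparison with LA. The deposited tables of comparisons hold log2 fold changes, a p-value and adjusted p-value, and a score (moderated t and log odds) for each probe set, per the file headers, and were used only to compare calls. Of 45101 probe sets 64 were controls. Of the other 45037, the array annotation gave 34945 a single symbol, 932 several and 9160 none. All 76 members were found by Entrez ID in the gene table, with 0 symbols changed.

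The 3 contrasts came from 1 limma model (lmFit and eBayes, limma 3.58.1 in R 4.3.3) of all arrays. Tests were two-sided, p-values were adjusted by the Benjamini-Hochberg method across all 45037 probe sets, and calls were made under 0.05. Background on an array was the 95th percentile of 27 control probe sets. Named members are the called ones (up to 12 rises and 12 falls a comparison), up to 4 others with the largest differences, 7 of special role, the 3 with the highest and the 3 with the lowest mean, and those with probe sets called both ways. Others named only for a place in the ribosome or a further probe set stand outside this rule. From each further list up to 3 called genes are named per comparison. Ptcd3 and the named partners with a facing promoter were chosen after their values were seen. Of 160 list entries 156 matched a gene, 3 by an older symbol. The members, lists and tests were chosen with earlier results of these data known, so no list was tested.

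The number of arrays limits the precision. The 21 alternatives were a replicate block, each array left out, only the 2 groups compared, median centring, quantile normalization, a filter on dim probe sets, trend with robust estimation, array weights, an RNA quality covariate, the mean or the median probe set, a threshold of 0.01 and, chosen after seeing the data, quantile normalization without LA replicate 3. Tables and plots used Python 3.11.15, pandas 2.3.3 and matplotlib 3.10.9.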

Additional observations from a re-analysis of the deposited data

How the results depend on the processing

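Over 21 alternatives, 136 of 189 values of counts and medians stayed within 1.5 times the reported count or within the spread of the arrays, and 53 did not. The count of members lower in CLA against LA, 9 as reported, was 34 after quantile normalization, 30 with that step and LA replicate 3 left out (an alternative chosen after seeing the data), 25 with array weights, 14 over means of probe sets, 3 in a fit of the 2 groups alone, 2 with the quality covariate and 2 at adjusted p under 0.01. With single arrays left out it ranged from 2 to 23. The quality covariate was higher on every LA array than on any treated array, so counts from that fit against LA cannot tell RNA quality from treatment. The median there was -0.3627 after quantile normalization and -0.3311 with LA replicate 3 left out as well. Phenformin against LA, 9 higher and 4 lower as reported, gave 3 and 28 after quantile normalization, 3 and 24 with LA replicate 3 left out too, 10 and 14 with array weights, 5 and 2 in a fit of the 2 groups, 5 and 0 with the quality covariate (limma; 10 and 4 at p under 0.05 without adjustment), 5 and 3 over means of probe sets, and 3 and 1 at 0.01. With single arrays left out it ranged from 3 to 11 higher and from 2 to 13 lower, and the median from -0.1395 to 0.1399. Its median was -0.2696 after quantile normalization and -0.2899 with LA replicate 3 left out too. In phenformin against CLA, 3 higher as reported, the count was 1 after quantile normalization, 1 with trend and robust estimation and 1 with the median probe set. It was 7 with array weights and 0 at 0.01 (limma; 13 at p under 0.05 without adjustment, beside 3754 of all 18193 genes). With single arrays left out it was 0 to 5. The median was 0.083 after quantile normalization and 0.0844 with LA replicate 3 left out too. For members named by the stated rule 9 values turned sign with a call on either side. With the median probe set in place of the brightest these were Mrpl17 (-0.2184 in CLA, -0.3979 with phenformin), Mrpl34 (0.1283 and 0.2347), Mrps25 (-0.4815 and -0.133), Mrpl27 (-0.0035 with phenformin) and Mrpl47 (-0.5949 with phenformin), and after quantile normalization Mrps6 (-0.333 with phenformin). The cause was not tested. The replicate number as a block gave 6 higher and 9 lower in CLA, 8 and 4 with phenformin against LA, and 2 and 0 with phenformin against CLA. The deviations of same-numbered arrays from their group means correlated at -0.29 to -0.08 for CLA with LA and at -0.22 to -0.05 for phenformin with LA. For phenformin with CLA they correlated at 0.29, 0.09 and 0.58, and differently numbered arrays at -0.53 to 0.39. As 1 of these 3 pairs was under 0.1, the numbers were not taken as a pairing.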
